A study of Mus musculus with 16 samples.

Results

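The nuclear genes of the mitochondrial respiratory chain and ATP synthase were followed in retinal microglia of mice with oxygen-induced retinopathy (OIR) and of mice without it (nonOIR). Genes were taken from the deposited table by symbol: the Nduf a, b, c, s and v genes of complex I, the Sdh genes of complex II, the Uqcr genes of complex III, the Cox4 to Cox8 genes of complex IV and the Atp5 genes of complex V. Symbols marked as pseudogenes were left out, and a gene was kept where it reached 1 CPM (a count scaled by its library total to a common depth) in at least 8 libraries. The rule found 89 of 54532 genes and kept 77 members, of which 36 belong to complex I, 4 to complex II, 8 to complex III, 13 to complex IV and 16 to complex V. All 77 passed the filter on low counts and were among the 12496 genes tested.

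Both groups were Cx3cr1CreERT2:Rosa26-tdTomato mice that had received tamoxifen, 5 µl at 21 mg/ml, at postnatal day 1 and were 17 days old. In such mice the Cre recombinase is driven by the promoter of Cx3cr1, a gene of microglia and related macrophages, so the red reporter marks cells that used this promoter when tamoxifen was given. In both groups, cells low in CD45, positive for CD11b and the reporter, and negative for Ly6C and Ly6G were sorted. The groups differ only in the OIR label, the model in which pups breathe high oxygen and are then returned to room air. There were 8 OIR and 8 nonOIR libraries with 13591651 to 30001463 counts each. Whether each library came from an animal of its own is not stated in the labels, and the p-values therefore refer to the spread among these libraries, which may be technical.

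The respiratory chain sits in the inner mitochondrial membrane. Complexes I and II take electrons from NADH and succinate, complex III passes them to cytochrome c, and complex IV hands them to oxygen. Complexes I, III and IV pump protons, and complex V, the ATP synthase, lets them flow back through a rotating ring to make ATP. Each complex other than complex II combines subunits encoded in the nucleus with a few encoded in mitochondrial DNA. Microglia can make ATP both by this route and by glycolysis.

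Of the 77 members, 30 rose in OIR and none fell (edgeR quasi-likelihood test, Benjamini-Hochberg adjusted p under 0.05 over all genes tested), which is 39.0% of the members beside a background of 6.39% of all genes called higher and 4.56% called lower. At an unadjusted p under 0.05, 54 members were higher and 0 lower. Background shares at that limit were 12.9% and 12.1%. The median log2 fold change of the members was 0.38, a fold of 1.30, and that of all genes tested was -0.03. The log2 fold change was above 0 in 75 members and below 0 in 2, Cox7a2l and Atp5l. With the other scalings no sign changed except that of Cox7c, whose value was -0.0227 with upper quartile scaling. Called members differed by 1.19-fold (Atp5b) to 1.61-fold (Atp5mpl). In 28 of the 30 called members, every OIR library lay above the nonOIR median. The same held for 44 of the 77 members. The called members were picked from these same values, and the share over all genes tested is not given here.

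**Figure D1:**
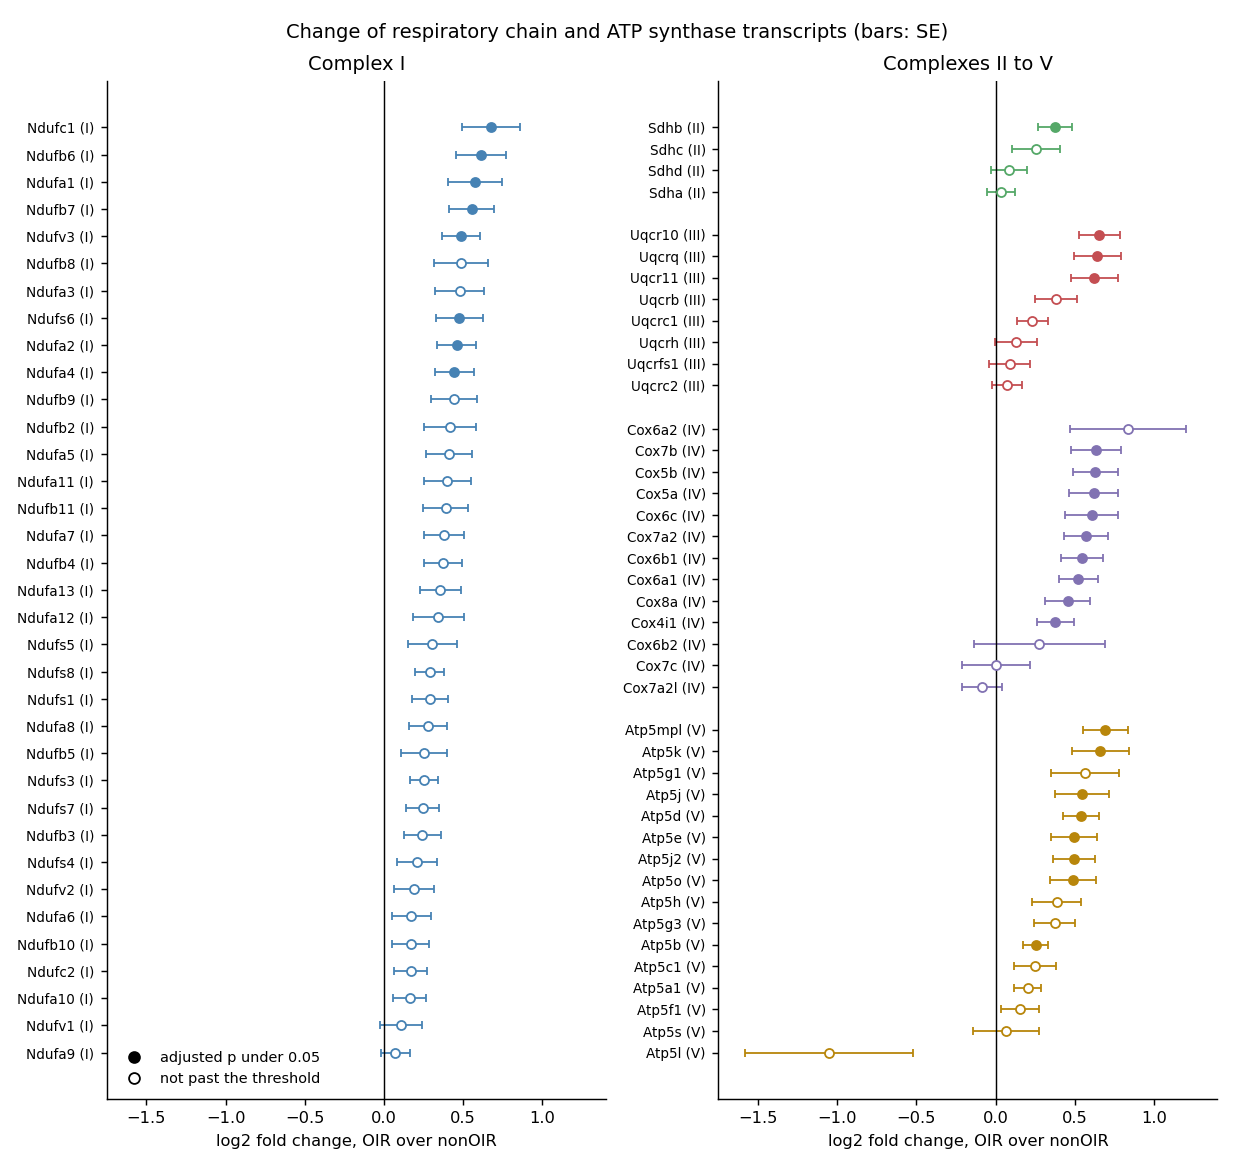
Log2 fold change of OIR over nonOIR for each member whose single values are reported (points; bars show the standard error), sorted within complexes I to V, with filled points for an adjusted p under 0.05. All filled points lie to the right of 0, complex IV has 9 of 13 filled, and Atp5l lies far to the left with a wide bar.

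The rise was small beside the spread between libraries when all 16 were pooled. Only Ndufb4 had every OIR library above every nonOIR library, which is 1.30% of the members beside 1.34% of all genes tested. Ndufb4 itself did not pass the test, with 8.73, 10.2 and 12.2 CPM as the lowest, median and highest nonOIR values against 12.3, 13.7 and 15.0 CPM in OIR (edgeR adjusted p = 0.0545). The libraries carry a lane code in their labels, with 5 libraries per group in lane 1 and 3 per group in lane 2, and the median of the members' summed level was higher in lane 2 than in lane 1 in both groups. Within lane 1, 30 members (39.0%) were higher in OIR without overlap and 0 lower, beside 3.29% and 2.3% of all genes. Within lane 2, 48 members (62.3%) were higher without overlap and 2 lower, beside 18.3% and 18.8%. In both lanes at once, 26 members (33.8%) were higher without overlap, beside 2.63% of all genes. The labels do not say whether the lane code also marks animals or library preparation.

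Promoter letters were read for the 62 members found in the RefSeq promoter table (build GRCm38.p6, 250 bases before to 50 bases after a gene's start). The motifs searched, on both strands, were those of factors known to regulate nuclear genes of mitochondria. GCGCATGC, a core of the sites of NRF1, was present in 9 of the 62 members (14.5%) and in 3.05% of the 27025 genes in the table. The members were kept by their level, whereas the promoter table was not limited to the 12496 genes tested. Its shares are therefore no background of expressed genes. AAGATGGC, a core of YY1 sites, was present in 9 (14.5% beside 3.19%), and CCGGAAG, an ETS site of the kind bound by GABPA, in 16 (25.8% beside 9.93%). At least 1 of these 3 motifs stood in 28 of the 62 members. The share of all genes with at least 1 of them was not counted. The stretches below are those of called members with the NRF1 letters and then those of called members with the YY1 letters, shown because they let the shared letters be seen in genes of different complexes. Capitals mark the motif, and each stretch is written in the direction in which the motif reads.
Sdhb, chr4:140961206-140961235, minus strand: cggcccgtaggGCGCATGCccactgggctt
Uqcr11, chr10:80406807-80406836, plus strand: gcagacgtataGCGCATGCgtgaaggcgat
Cox6a1, chr5:115349102-115349131, minus strand: acaggaacgggGCGCATGCgcgctctcgct
Atp5k, chr5:108434431-108434460, minus strand: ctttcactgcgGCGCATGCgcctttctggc
Ndufc1, chr3:51408915-51408944, minus strand: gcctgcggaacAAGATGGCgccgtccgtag
Ndufs6, chr13:73328433-73328462, minus strand: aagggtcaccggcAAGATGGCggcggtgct
Atp5j, chr16:84835046-84835075, minus strand: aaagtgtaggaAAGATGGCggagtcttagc
Atp5j2, chr5:145191500-145191529, minus strand: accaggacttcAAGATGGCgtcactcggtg

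The YY1 letters of Ndufc1, Ndufs6 and Atp5j2 lay just after the annotated start, from bases 22, 33 and 23, and read in the direction of the gene. Among members without a call, the NRF1 letters stood in Ndufa6, Ndufa8, Ndufa11, Uqcrc1 and Atp5l, and the YY1 letters in Ndufa3, Ndufa9, Ndufb8, Ndufs4 and Ndufs7. Of the 24 called members with a matched promoter, 4 held the NRF1 letters, 4 the YY1 letters and 10 the CCGGAAG letters. Of the 38 other members, 5, 5 and 6 did. TCAAGGTCA, a site of the estrogen-related receptors, was found in Sdhd and Atp5g3 only, 3.23% of the matched members beside 0.466% of all genes. ACGTG and GCGTG, the cores of hypoxia response elements, were searched as well, and the E-box CACGTG holds the first of them. ACGTG stood in 21% of members and 21.8% of all genes, and GCGTG in 54.8% and 35.2%. The E-box stood in 8.06% beside 8.09%, and the GC box GGGCGG in 38.7% beside 38.2%. A match is a description of letters and not a measured site.

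**Figure D2:**
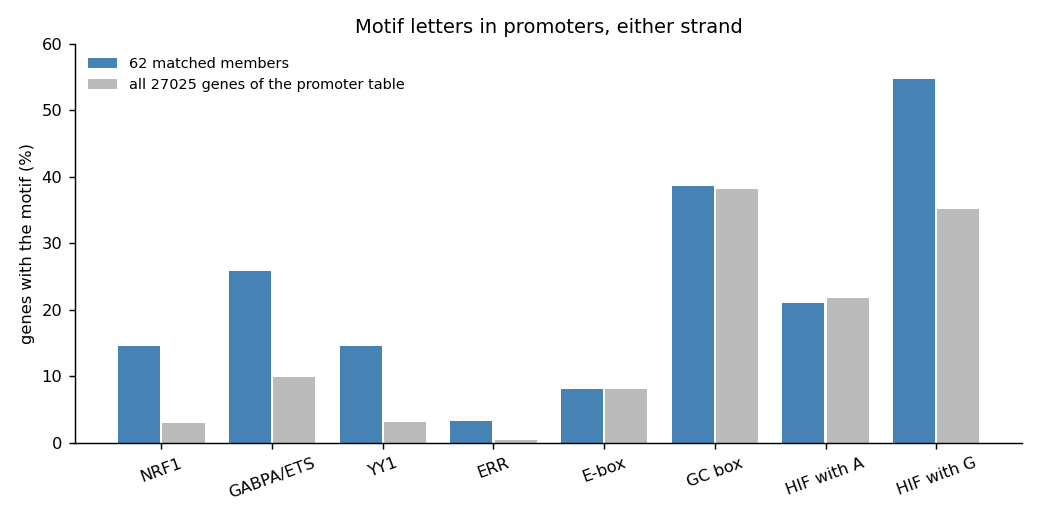
Share (%) of genes whose promoter holds each motif on either strand, for the 62 matched members (blue) and all 27025 genes of the table (grey). The NRF1, GABPA/ETS, YY1, ERR and GCGTG (HIF with G) letters are more frequent among members, while the E-box, GC box and ACGTG (HIF with A) shares are near those of all genes.

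Of the 13 members of complex IV, cytochrome c oxidase, 9 rose, with log2 fold changes from 0.38 to 0.63, and the median over the complex was 0.54. Its nuclear subunits surround a catalytic core that is encoded in mitochondrial DNA. Cox5b, a subunit that carries zinc, is transcribed from chr1:36691449-36693681. It gave 16.8, 19.5 and 25.0 CPM as the lowest, median and highest nonOIR values and 24.1, 27.0 and 41.9 CPM in OIR. The groups overlapped only because 1 nonOIR library of lane 2 reached the lower OIR values. The mean rose from 19.4 ± 2.67 to 30.0 ± 7.13 CPM (SD, n = 8 each), or by 0.63 on the log2 scale (SE 0.14; edgeR, adjusted p = 0.00778).

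Cox6a1, a small regulatory subunit in most tissues, lies at chr5:115345642-115348981, and its promoter is among the NRF1 stretches above. Its levels were 116.5, 131.4 and 171.1 CPM in nonOIR and 153.7, 174.9 and 267.1 CPM in OIR, or by 0.52 on the log2 scale (SE 0.12; edgeR, adjusted p = 0.0106). All OIR libraries lay above the nonOIR median, and the upper nonOIR values overlapped the lower OIR values. Cox6b1, which bridges the partners of the complex IV dimer on the side facing cytochrome c, gave 146.4, 176.0 and 228.1 CPM in nonOIR and 210.9, 227.3 and 385.4 CPM in OIR (log2 fold change 0.54, SE 0.13, edgeR adjusted p = 0.0134). Cox7a2, the form of subunit 7a found outside muscle, gave 59.1, 66.5 and 99.9 CPM in nonOIR and 78.5, 96.7 and 143.5 CPM in OIR (log2 fold change 0.57, SE 0.14, edgeR adjusted p = 0.0145). In both genes the lowest OIR library stood above the nonOIR median, and the ranges met.

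Cox4i1, the largest nuclear subunit and a site at which ATP regulates the enzyme, had the highest level of all members per length, 508 CPM per kb of transcript in nonOIR and 659 in OIR. It rose less than its neighbours. Its values were 312.9, 349.0 and 505.9 CPM in nonOIR and 384.0, 473.7 and 657.1 CPM in OIR (log2 fold change 0.38, SE 0.12, edgeR adjusted p = 0.0458). Cox4i1 lost its call in 11 of the 16 fits that each omitted a library. Cox5a (0.62), Cox6c (0.61), Cox7b (0.63) and Cox8a (0.45), all small subunits of the enzyme, also rose, with these log2 fold changes. Cox8a lost its call in 10 of those 16 fits and Cox6c without OIR replicate 8.

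The 4 members of complex IV without a call were Cox6a2, Cox6b2, Cox7c and Cox7a2l. Cox7a2l does not act as an ordinary subunit: it joins complex III to complex IV in supercomplexes. It gave 41.1, 50.3 and 71.2 CPM in nonOIR and 41.3, 49.9 and 68.5 CPM in OIR, so that the ranges coincided. Its fold was 0.943, with a 95% interval of 0.784 to 1.13 (edgeR adjusted p = 0.742). Its log2 fold change was 0.14 in lane 1 alone and -0.35 in lane 2 alone. Cox7c is one of the members whose count is uncertain: only 47.0% of the 50-base windows of its transcript occur in no other annotated gene, and it stood at 3.96 CPM in nonOIR and 3.97 in OIR (fold 1.00, 95% interval 0.734 to 1.37).

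Several subunits of complex IV exist as paired forms, one general and one for muscle, testis or lung. The general form made up nearly all transcripts in both groups. After correction for length, Cox6a2, the heart and muscle form, made up 0.832% ± 0.247 of the Cox6a1 and Cox6a2 pair in nonOIR and 0.975% ± 0.364 in OIR (SD, n = 8 each), and Cox6b2, the testis form, 0.588% ± 0.203 and 0.475% ± 0.198 of its pair with Cox6b1. The ranges of both shares overlapped. Cox6a2 itself went from 1.35 ± 0.37 to 2.41 ± 1.35 CPM (SD, n = 8 each; edgeR adjusted p = 0.158), and its exons overlap those of Itgad. Cox6b2 was the member nearest the threshold of the rule, with 1 CPM in 9 libraries.

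Cox7a1, the heart and muscle form of subunit 7a, was the gene just outside that threshold, with 1 CPM in 3 libraries. It had 39 counts over the 8 nonOIR libraries and 185 over the 8 OIR libraries, or 0.220 and 0.887 CPM. Its edgeR log2 fold change was 1.97 (SE 0.55, edgeR adjusted p = 0.0283), and its share of the Cox7a1 and Cox7a2 pair was 0.479% ± 0.316 in nonOIR and 1.46% ± 0.627 in OIR (SD, n = 8 each). Cox4i2, the lung form of subunit 4 that is known to respond to oxygen, made up 0.0824% and 0.107% of its pair with Cox4i1 and did not reach 1 CPM in any library. Cox6c2, Cox7b2, Cox8b and Cox8c also stayed under 1 CPM in every library. These are forms made mainly in other tissues.

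Complex III, which passes electrons from ubiquinol to cytochrome c, had 3 risen members of 8, all of them small subunits. Uqcr10, a short subunit beside the Rieske protein, lies at chr11:4701973-4704342 and had the lowest p of all members. It gave 45.6, 55.1 and 70.7 CPM in nonOIR and 69.0, 85.9 and 123.0 CPM in OIR. The lowest OIR library fell just under the highest nonOIR library, and the other OIR libraries lay above all nonOIR libraries. The mean rose from 57.7 ± 9.18 to 90.9 ± 19.5 CPM (SD, n = 8 each), or by 0.65 on the log2 scale (SE 0.13; edgeR, adjusted p = 0.00334).

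Uqcrq, which helps to hold cytochrome b, gave 58.6, 72.0 and 97.7 CPM in nonOIR and 86.5, 105.1 and 167.2 CPM in OIR (log2 fold change 0.64, SE 0.15, edgeR adjusted p = 0.00961). Uqcr11, the smallest subunit, whose promoter holds the NRF1 letters, gave 30.4, 33.7 and 44.9 CPM in nonOIR and 40.6, 50.1 and 80.7 CPM in OIR (log2 fold change 0.62, SE 0.15, edgeR adjusted p = 0.0106). In both, the OIR libraries lay above the nonOIR median and the ranges met at their ends. These 3 genes were also higher without overlap in each lane.

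The remaining members of complex III did not pass the test. Uqcrc1, a core protein, is among the members with the highest level per length (164 CPM per kb in nonOIR and 192 in OIR). It gave 244.4, 260.6 and 317.1 CPM in nonOIR and 246.2, 312.7 and 391.9 CPM in OIR, with wide overlap. Its fold was 1.17 with a 95% interval of 1.02 to 1.35 (edgeR adjusted p = 0.146). The other core protein, Uqcrc2, had a log2 fold change of 0.07, and the Rieske iron-sulfur protein Uqcrfs1 one of 0.09, with a 95% interval of its fold from 0.883 to 1.28. Uqcrh, the hinge protein that contacts cytochrome c, gave 68.8, 87.0 and 128.7 CPM in nonOIR and 72.4, 97.5 and 137.8 CPM in OIR (fold 1.09, 95% interval 0.903 to 1.33). Uqcrb, which binds ubiquinone, had a log2 fold change of 0.38 (edgeR adjusted p = 0.0694). The median log2 fold change was 0.62 over the 5 small subunits and 0.09 over the core and Rieske proteins. Transcript length, with which the members' difference also went (below), was not matched between these sets.

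**Figure D3:**
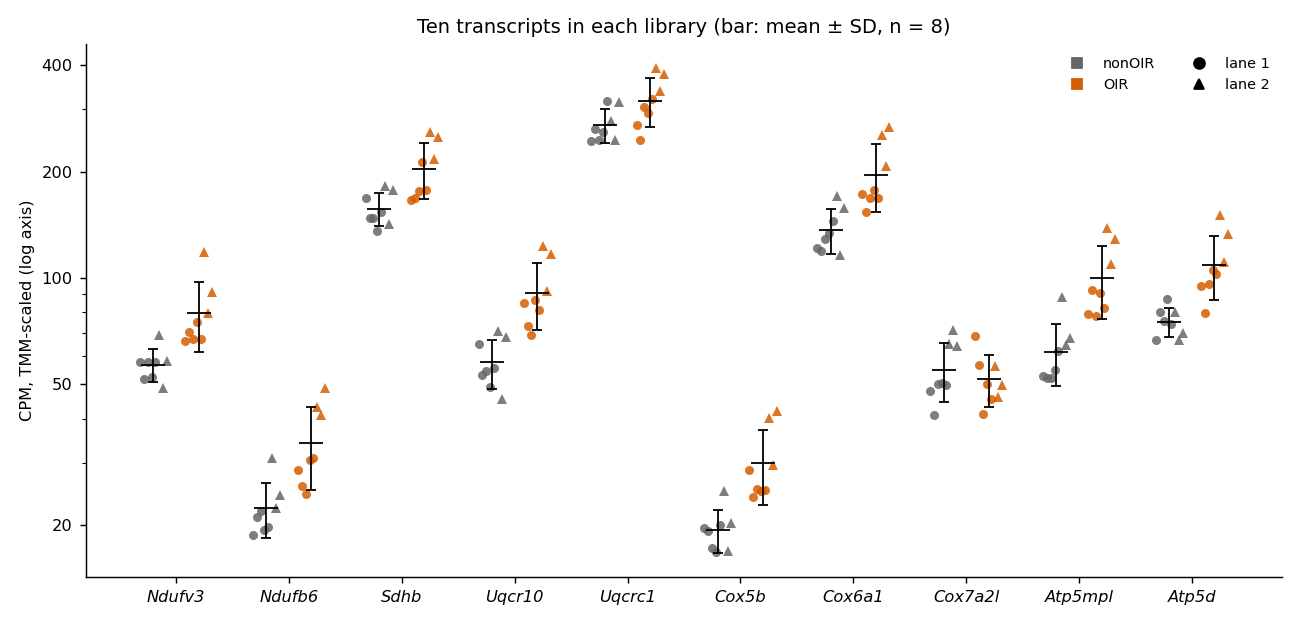
Level (TMM-scaled CPM, log axis) of 10 members in each library, nonOIR in grey and OIR in orange, circles for lane 1 and triangles for lane 2, with the mean and SD of each group. Uqcr10, Cox5b and Atp5mpl stand clearly higher in OIR with a few overlapping libraries, Uqcrc1 overlaps widely, and Cox7a2l shows no shift.

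Complex V, the ATP synthase, had 8 risen members of 16 and a median log2 fold change of 0.44. The count was 3 without OIR replicate 6 or 8, and 4 without OIR replicate 7 or any of nonOIR replicates 1, 2, 3, 4, 5 and 7. The small membrane subunits around the ring stood highest, with a median of 0.58 and 3 of 4 called. Atp5mpl, a small proteolipid of the membrane part, lies at chr12:111961375-111966977. It gave 52.0, 58.5 and 88.6 CPM in nonOIR and 77.9, 91.6 and 138.4 CPM in OIR. One nonOIR library, replicate 6 of lane 2, lay far above the others of its group and inside the OIR range. The mean rose from 61.9 ± 12.4 to 99.96 ± 23.3 CPM (SD, n = 8 each), or by 0.69 on the log2 scale (SE 0.14; edgeR, adjusted p = 0.00436).

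Atp5k, subunit e, which takes part in joining synthase dimers, gave 23.0, 27.9 and 39.1 CPM in nonOIR and 31.5, 38.9 and 75.8 CPM in OIR (log2 fold change 0.66, SE 0.18, edgeR adjusted p = 0.0256). Atp5j2, subunit f, gave 66.8, 78.2 and 108.8 CPM in nonOIR and 87.4, 105.7 and 167.0 CPM in OIR (log2 fold change 0.49, SE 0.13, edgeR adjusted p = 0.0242). Every OIR library of both genes was above the nonOIR median, and the ranges overlapped at their ends. Their promoter stretches stand above, with the NRF1 letters for Atp5k and the YY1 letters for Atp5j2. Atp5k lost its call without OIR replicate 6 or 8.

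Atp5l, subunit g of the same group, was the member with the lowest log2 fold change, -1.05 (SE 0.53), and did not pass the test (unadjusted p = 0.0628, edgeR adjusted p = 0.229). It gave 0.427, 3.82 and 9.01 CPM in nonOIR and 0.688, 1.93 and 3.87 CPM in OIR. Its nonOIR values spread over the whole OIR range. Its count is uncertain, because only 15.2% of its 50-base windows are unique to it and 14 other annotated genes share the rest.

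In the catalytic head (F1), 3 of 5 members rose. Atp5d, the delta subunit of the rotor, lies at chr10:80138632-80145818 and gave 66.8, 74.9 and 87.3 CPM in nonOIR and 79.5, 104.0 and 150.5 CPM in OIR. Its mean rose from 75.1 ± 7.18 to 109.2 ± 22.7 CPM (SD, n = 8 each), or by 0.54 on the log2 scale (SE 0.11; edgeR, adjusted p = 0.00517). The nonOIR libraries were close together, and the OIR libraries spread from their upper edge to well above.

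Atp5e, the epsilon subunit beside delta, gave 81.0, 96.0 and 136.2 CPM in nonOIR and 91.1, 128.4 and 207.3 CPM in OIR (log2 fold change 0.49, SE 0.15, edgeR adjusted p = 0.0361). Atp5b, the catalytic beta subunit, had the highest CPM of all members and 424 CPM per kb in nonOIR. It gave 742.8, 825.8 and 879.7 CPM in nonOIR and 804.7, 938.2 and 1146 CPM in OIR (log2 fold change 0.25, SE 0.08, edgeR adjusted p = 0.0475). For Atp5e and Atp5b, 7 of 8 OIR libraries exceeded the nonOIR median. Atp5b lost its call in 13 and Atp5e in 9 of the 16 fits that each omitted a library. Atp5a1, the alpha subunit that alternates with beta, had a fold of 1.15 with a 95% interval of 1.02 to 1.30 (edgeR adjusted p = 0.137), and Atp5c1, the gamma shaft, a fold of 1.19 (edgeR adjusted p = 0.266).

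Of the stalk that holds the head in place, Atp5j (subunit F6, log2 fold change 0.54) and Atp5o (the protein that confers oligomycin sensitivity, 0.49) rose, while Atp5h (subunit d, 0.38) and Atp5f1 (subunit b, 0.16) did not pass the test. Atp5j lost its call in 10 and Atp5o in 9 of the 16 fits that each omitted a library, and both lost it with upper quartile scaling, without a filter and with limma-voom. Exons of Atp5j overlap those of Gabpa, the gene of a regulator of mitochondrial genes that lies head to head with it, and reads of the 2 genes there cannot be told apart without strand. Gabpa itself had a log2 fold change of 0.20 (edgeR adjusted p = 0.240). The 3 genes of the c subunit encode the same mature ring protein with different import sequences. Atp5g3 went from 148.4 ± 20.2 to 192.1 ± 47.7 CPM (SD, n = 8 each; edgeR adjusted p = 0.0791), and Atp5g1 from 5.47 ± 1.36 to 8.11 ± 2.35 CPM (SD, n = 8 each; edgeR adjusted p = 0.10). Per length, Atp5g1 made up 0.554% of its pair with Atp5g3 in nonOIR and 0.640% in OIR, and Atp5g2, which was not kept, 0.603% and 0.428%. Atp5s, known as factor B, is no structural subunit and had a log2 fold change of 0.07. A second table entry with the symbol Atp5o had 0 counts.

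Complex I, the NADH dehydrogenase, had 9 risen members of 36, with a median log2 fold change of 0.35, and all 36 values were above 0. The count was 4 without OIR replicate 8, 5 without OIR replicate 6, 14 without OIR replicate 2 and 15 without OIR replicate 3. The called members included Ndufv3, Ndufb6, Ndufb7, Ndufc1, Ndufa1, Ndufa2, Ndufs6 and Ndufa4. Ndufv3, an accessory subunit at the tip of the matrix arm, lies at chr17:31520115-31531331. It gave 48.9, 57.9 and 68.9 CPM in nonOIR and 66.4, 72.9 and 118.2 CPM in OIR. A single nonOIR library reached into the OIR range. The mean rose from 56.7 ± 6.08 to 79.5 ± 17.8 CPM (SD, n = 8 each), or by 0.49 on the log2 scale (SE 0.12; edgeR, adjusted p = 0.0135).

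Ndufb6, an accessory subunit of the membrane arm, gave 18.7, 21.5 and 31.0 CPM in nonOIR and 24.4, 30.8 and 49.0 CPM in OIR (log2 fold change 0.61, SE 0.16, edgeR adjusted p = 0.0164), and its exons overlap those of Smim27. Ndufb7, on the intermembrane face, gave 48.0, 59.3 and 79.0 CPM in nonOIR and 64.8, 80.3 and 130.3 CPM in OIR (log2 fold change 0.55, SE 0.14, edgeR adjusted p = 0.0168). Ndufc1, a small membrane subunit, gave 20.1, 26.1 and 36.0 CPM in nonOIR and 29.9, 36.1 and 66.6 CPM in OIR (log2 fold change 0.68, SE 0.18, edgeR adjusted p = 0.0240). In each of the 3 genes all OIR libraries exceeded the nonOIR median and the ranges overlapped. The log2 fold changes of the other accessory calls were 0.57 for Ndufa1, 0.46 for Ndufa2 and 0.48 for Ndufs6. Ndufs6 lost its call in 11 and Ndufa1 in 10 of the 16 fits that each omitted a library, Ndufa2 in none, and Ndufc1 without OIR replicate 6 or 8.

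Per length, the highest members by symbol were Ndufc2 and Ndufa4. Ndufc2, another small membrane subunit, gave 112.9, 128.3 and 160.3 CPM in nonOIR and 124.4, 151.3 and 185.4 CPM in OIR, with a fold of 1.12 and a 95% interval of 0.966 to 1.31 (edgeR adjusted p = 0.337). Ndufa4, named for complex I but placed in complex IV by later work, gave 97.0, 109.3 and 135.9 CPM in nonOIR and 119.8, 142.1 and 220.5 CPM in OIR (log2 fold change 0.44, SE 0.12, edgeR adjusted p = 0.0258). All OIR libraries of Ndufa4 were above its nonOIR median, while 6 of 8 were so for Ndufc2. Ndufa4 lost its call without OIR replicate 8. Ndufa4l2, its hypoxia-linked relative, reached 1 CPM in no library, and the same held for Ndufa11b, Ndufb4c and Ndufs6b.

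The core subunits of complex I encoded in the nucleus form, with their flavin and iron-sulfur clusters, the path along which electrons run. Among them, Ndufs1, Ndufs3, Ndufs7, Ndufs8, Ndufv1 and Ndufv2 did not pass the test and had log2 fold changes between 0.10 (Ndufv1) and 0.29 (Ndufs1 and Ndufs8). Ndufs8 missed the threshold narrowly (edgeR adjusted p = 0.0513). Of the 28 accessory subunits 7 rose, and their median log2 fold change was 0.38.

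The remaining accessory subunits of complex I did not pass the test. Ndufa3, Ndufa5, Ndufa7, Ndufa11, Ndufa13, Ndufb8, Ndufb9 and Ndufb11 had log2 fold changes from 0.36 to 0.48 with adjusted p-values between 0.0523 and 0.0937. Values of Ndufa8, Ndufa12, Ndufb2, Ndufb3, Ndufb5 and Ndufs5 ran from 0.24 to 0.42, and those of Ndufa6, Ndufa9, Ndufa10, Ndufb10 and Ndufs4 from 0.07 to 0.21. Of all 77 members, 13 without a call had an adjusted p under 0.1, all with higher values in OIR. Ndufb1-ps, which the rule leaves out by its symbol, was present in 16 libraries at 66.7 CPM in nonOIR and 96.6 CPM in OIR (edgeR adjusted p = 0.0751).

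Complex II, succinate dehydrogenase, is the complex shared with the citric acid cycle and has no part encoded in mitochondrial DNA. It had 1 risen member of 4. Sdhb, the iron-sulfur subunit, lies at chr4:140961203-140979193 and gave 136.0, 151.0 and 182.5 CPM in nonOIR and 166.5, 195.6 and 258.6 CPM in OIR. All OIR libraries were above the nonOIR median. The mean went from 156.9 ± 17.0 to 203.5 ± 36.8 CPM (SD, n = 8 each), or by 0.38 on the log2 scale (SE 0.11; edgeR, adjusted p = 0.0278). Sdhb lost its call without OIR replicate 6, 7 or 8 or nonOIR replicate 2, 4 or 7, each left out alone.

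Sdha, the flavoprotein that binds succinate, differed little: 238.3, 321.2 and 358.3 CPM in nonOIR and 267.3, 314.4 and 356.2 CPM in OIR. Its fold was 1.02 with a 95% interval of 0.901 to 1.16 (edgeR adjusted p = 0.863). The membrane anchor Sdhd, which had the highest level per length in the complex, gave 160.5, 188.4 and 239.7 CPM in nonOIR and 159.3, 203.8 and 262.8 CPM in OIR (fold 1.06, 95% interval 0.897 to 1.25). The other anchor, Sdhc, had a fold of 1.19 (edgeR adjusted p = 0.316). The ranges of Sdha and Sdhd overlapped almost fully.

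Summed over the 77 members, the level was 7539 ± 841 CPM in nonOIR and 9405 ± 1618 CPM in OIR (SD, n = 8 each), a ratio of 1.25. In lane 1 the sums ran from 6796 to 7870 CPM in nonOIR and from 8025 to 8642 CPM in OIR, and in lane 2 from 7442 to 8937 and from 9920 to 12146 CPM. The groups did not overlap within either lane but did across lanes. By complex, the OIR to nonOIR ratio of the sums was 1.25 for complex I, 1.11 for complex II, 1.22 for complex III, 1.38 for complex IV and 1.24 for complex V. These sums are in CPM and weigh long, abundant transcripts most. In bulk RNA, fewer cells of a type and less RNA per cell cannot be told apart.

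**Figure D4:**
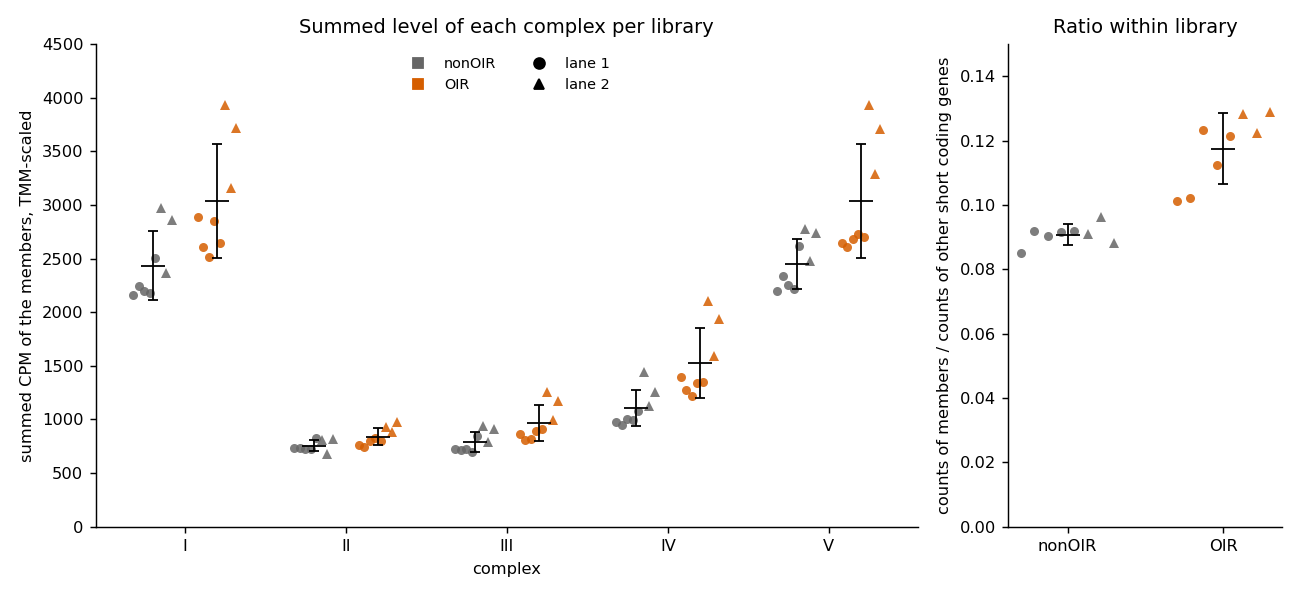
Left, summed level of the members of each complex per library (TMM-scaled CPM), nonOIR in grey and OIR in orange, circles for lane 1 and triangles for lane 2, with mean and SD (n = 8). Right, counts of all members, whatever their length, over those of other coding genes of at most 1000 bases in the same library. The values were 0.0851 to 0.0962 in nonOIR and 0.101 to 0.129 in OIR.

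Lane moved with the size of the difference. Fitted alone, lane 1 called 18 members higher (background 2.2%) with a median log2 fold change of 0.30, and lane 2 called 40 (background 9.63%) with a median of 0.54. Both lanes called 16 of them. The difference was larger in lane 2 for 65 of the 77 members, and the highest OIR library was a lane 2 library for 71 members and OIR replicate 6 for 49. No member passed a test of the difference between lanes (edgeR group by lane interaction, smallest adjusted p = 0.147 for Atp5d, background 0.496%), and 11 had an unadjusted p under 0.05. With lane as a covariate, 47 members rose and 0 fell (background 9.68% higher). Leaving out OIR replicate 8 left 16 calls and leaving out OIR replicate 6 left 18.

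Many of the members are short, and the difference went with transcript length. The 30 called members had a median reference transcript of 652 bases and the 47 others one of 971. Across the 77 members, which share the same libraries, Spearman's rho between log2 fold change and length was -0.44, given as a description. Coding genes that are no members had a similar lean: those up to 600 bases had a median log2 fold change of 0.24 (23.4% called higher), those of 601 to 1000 bases 0.16 (14.0%), those of 1001 to 2000 bases 0.01 (10.2%) and longer ones -0.03 (5.14%). In the same classes the members had medians of 0.46, 0.44, 0.25 and 0.23, with 11 of 22, 12 of 26, 7 of 23 and 0 of 6 called. The members' median was the higher one in each class, and their called share was the higher one in all but the class over 2000 bases, where none was called. These classes were chosen after the values were seen. The medians given above for the complexes and for small, core and accessory subunits were not matched for length.

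Taken against other coding genes of at most 1000 bases within each library, the members' counts were 0.0851 to 0.0962 of theirs in nonOIR and 0.101 to 0.129 in OIR, without overlap over the 16 libraries. The members' counts include the 23 members of 1001 to 2000 bases and the 6 longer ones, so this ratio is not matched for length. Those other short genes took 8.11% ± 0.969 of all counts in nonOIR and 8.20% ± 1.21 in OIR (SD, n = 8 each). The part of transcript length or RNA quality in the members' difference was not tested.

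**Figure D5:**
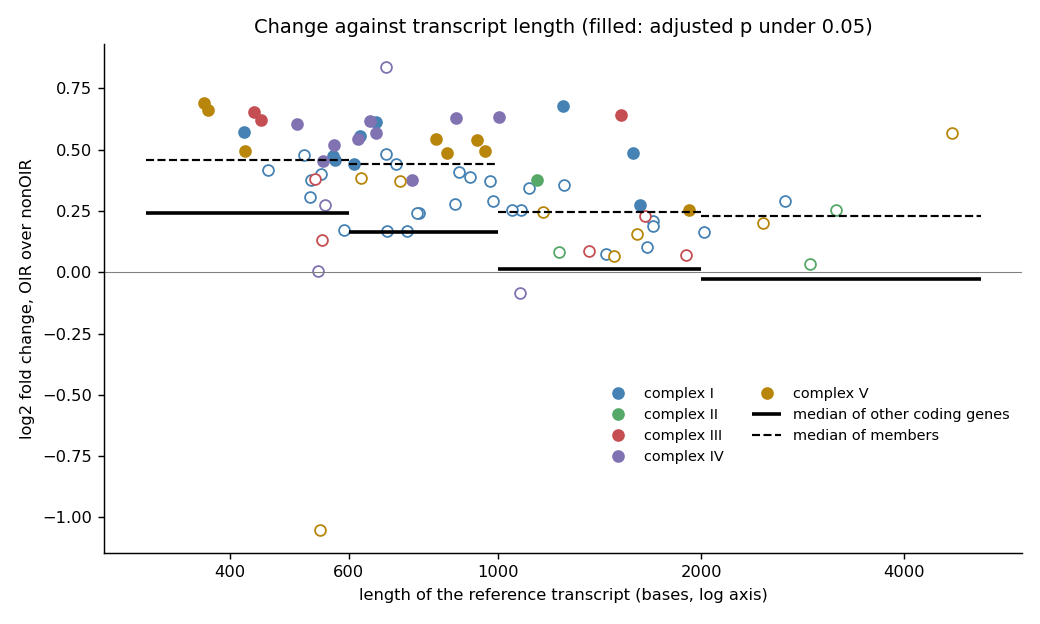
Log2 fold change of each member against the length of its reference transcript (bases, log axis), filled where the adjusted p is under 0.05 and coloured by complex. Dashed lines are the medians of the members and solid lines those of other coding genes in 4 length classes, with the members' median above that of the other genes in each.

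Counts of respiratory genes can lose reads to processed copies elsewhere in the genome. In 32 members every 50-base window of the reference transcript was found in no other annotated gene, and in 6 (Atp5l, Cox7c, Atp5h, Atp5o, Uqcrb and Ndufs5) under 60% were. Among the 32 fully unique members 13 rose, with a median log2 fold change of 0.33, and among the 45 others 17 rose, with a median of 0.38. Exons of 27 members overlap those of another gene.

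Genes around the chain were taken from lists of related functions and mostly did not pass the test. Over all the lists in this and the next paragraph, 7 genes were called higher and 1 lower. For scale, 6.39% of all genes tested were called higher and 4.56% lower. The genes named are single calls, and no list was tested as a set. None of 16 assembly factors of complex I rose or fell (median log2 fold change 0.07), and of 32 tested assembly factors of complexes II to V, Uqcc2, which helps to build complex III, rose and Tmem70, which helps to build the ATP synthase, fell (68.9 ± 10.2 to 51.6 ± 5.50 CPM, SD, n = 8 each; edgeR adjusted p = 0.0135). Of 21 electron carriers and subunits outside the symbol rule, Coq7, an enzyme of ubiquinone synthesis, rose from 13.1 ± 1.93 to 21.7 ± 5.82 CPM (SD, n = 8 each; edgeR adjusted p = 0.00673), and so did Etfb, a carrier of electrons from fat oxidation (edgeR adjusted p = 0.0465). Cyc1, the cytochrome of complex III, had a log2 fold change of 0.21 (edgeR adjusted p = 0.233). Of 17 genes of the citric acid cycle and pyruvate dehydrogenase 2 rose, Idh3b and Ogdh, and the list's median was 0.14.

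Among 8 tested carriers of ADP, phosphate and protons, Ucp2, an inner-membrane carrier of the uncoupling protein family, rose from 673.8 ± 110.9 to 1010 ± 114.0 CPM without overlap between the groups (SD, n = 8 each; edgeR adjusted p = 0.00124). None of 13 tested regulators of mitochondrial genes passed the test, and their median was -0.14. Nrf1 had a log2 fold change of -0.13, Tfam, a transcription factor of mitochondrial DNA, -0.14, and Yy1 -0.26. Of 8 tested hypoxia-linked genes, Bnip3, a receptor for mitochondrial autophagy, rose from 12.8 ± 2.41 to 23.4 ± 6.24 CPM (SD, n = 8 each; edgeR adjusted p = 0.00289), and Hif1a did not pass (log2 fold change 0.22, edgeR adjusted p = 0.171). All 13 subunits encoded in mitochondrial DNA are listed at 0 in every library, so nuclear and mitochondrial subunits could not be set against each other here.

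Marker lists moved with the groups beside the members. All 10 microglial markers were detected, and 3 of them fell, Tmem119 and P2ry12 among them; the summed level of the 10 was 58819 to 74300 CPM in nonOIR and 34931 to 58670 CPM in OIR. Of 12 proliferation genes 11 rose, with a sum of 48.1 to 86.2 CPM in nonOIR and 110 to 684 CPM in OIR. The 3 OIR libraries highest in proliferation genes, replicates 6, 8 and 7 of lane 2 (684, 524 and 494 CPM), also had the highest members' sums (12146, 11516 and 9920 CPM). These are all the OIR libraries of lane 2, so lane and proliferation cannot be told apart in them. Within lane 1, OIR replicate 3 was highest in proliferation genes (452 CPM) and had the lowest members' sum of the OIR libraries (8025 CPM). OIR replicate 1 of lane 1, the OIR library lowest in proliferation genes (110 CPM), had a members' sum of 8547 CPM. The nonOIR libraries of that lane had 6796 to 7870 CPM. The members' counts over those of other coding genes of at most 1000 bases ran otherwise. In OIR replicates 1, 2, 4, 5 and 3 of lane 1 this ratio was 0.101, 0.102, 0.112, 0.121 and 0.123. Their proliferation sums rose in the same order, at 110, 162, 241, 282 and 452 CPM. In OIR replicates 7, 8 and 6 of lane 2 the ratio was 0.122, 0.129 and 0.128. Both tested erythrocyte genes rose (sum over the list 0 to 28.9 against 1.87 to 292.5 CPM). None of 12 rod photoreceptor genes passed (74.5 to 648.2 against 47.4 to 532.5 CPM), 1 of 6 tested Müller glia genes fell (Glul; 1246 to 10517 against 2140 to 19533 CPM, mostly Apoe), and none of 3 vascular genes (21.0 to 42.4 against 11.4 to 37.6 CPM) or 2 monocyte and neutrophil genes (4.43 to 8.13 against 3.85 to 15.9 CPM) passed. Ly6c2 and Ly6g, whose proteins the sort excluded, were at 0 in every library. The part of proliferation or of other cells in the members' difference was not tested.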

How the data were processed

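The authors deposited whole-number counts per gene for 16 libraries, per the file headers, with 16 normalized columns that were not used. Per the labels' protocols, 750 pg of RNA gave cDNA through 12 cycles, 150 pg of it was tagmented, and single reads had 50 bases. The kit does not mark strand, and there are no molecular identifiers. The submitters' processing notes give the mm10 build and, without roles, STAR 2.6.0b-1 and featureCounts 1.6.2, besides FastQC 0.72 and DESeq2 2.11.40.2. The deposited log2 fold change and adjusted p-value columns of the authors served only to count calls: by the authors' deposited table, 39 members were higher and 0 lower at an adjusted p under 0.05.

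After filterByExpr and TMM scaling, 12496 genes were tested with edgeR 4.0.16 (glmQLFit robust, glmQLFTest, two-sided, Benjamini-Hochberg, threshold 0.05) in R 4.3.3. Levels in the text are TMM-scaled CPM and intervals of folds are 95%. The membership rule used unscaled CPM. Lengths, gene positions, exon overlaps and unique windows came from GENCODE M21 on the same build, using the principal transcript of each gene. Full values are given for up to 4 called members with the lowest p and the 2 highest per length in each complex, for isoform pairs and, from each list, for up to 3 called genes. The members and lists were chosen with earlier results of these data known. The test was tried on simulated data first. Alternatives covered scaling, filters, DESeq2 1.42.0, limma-voom 3.58.1, lane, replicate number and the omission of each library. No 2 libraries of a group agreed within sampling noise (chi-square per gene at least 15.7). Same-numbered libraries correlated between -0.02 and 0.19, so the numbers were not taken as pairs. A few genes are counted in the totals but their own values are not reported here.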

Additional observations from a re-analysis of the deposited data

Results flagged for a closer look

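Among 166 groups of 8 values examined for the members and their sums, 10 held 1 library whose gap to the next was a large part of the group's range; chance gives such a gap in about 1 of 20 groups. In 8 of them the library was nonOIR replicate 6 of lane 2, which was the highest of its group. Its values were 69.4 CPM for Ndufb11, 31.0 CPM for Ndufb6, 48.0 CPM for Ndufs6, 68.9 CPM for Ndufv3, 25.0 CPM for Cox5b, 128.7 CPM for Cox8a, 136.2 CPM for Atp5e and 88.6 CPM for Atp5mpl. Without this library 33 members were called higher. Ndufv1 was highest in nonOIR replicate 8, at 102.3 CPM, and Ndufs1 in OIR replicate 5, at 88.6 CPM.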

How the results depend on the processing

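No member was called lower under any setting. The count of members called higher, 30, became 47 with lane as a covariate and 18 in lane 1 alone. Elsewhere it was 20 (upper quartile), 23 (no filter), 24 (limma-voom), 30 (median of ratios), 31 (CPM filter), 38 (library size alone and DESeq2) and 40 (lane 2 alone). Without both OIR replicate 1 and nonOIR replicate 8 it was 32. It was 44 with a replicate block, whose numbers do not pair the libraries (2 of 8 OIR libraries correlated best with their own number). Leaving out 1 library gave 16 to 35 calls, and 16 of the 30 called members kept their call in all of these fits. The members' median exceeded that of all genes by 0.30 to 0.53.

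For complex I the count of 9 became 16 (library size alone), 15 (DESeq2), 22 (lane as a covariate), 20 (replicate block), 4 (lane 1) and 16 (lane 2), and 4 to 15 with a library left out. For complex II the count of 1 became 0 with upper quartile scaling and in lane 1, and 0 to 1 with a library left out. For complex III the count of 3 became 5 in lane 2. For complex V the count of 8 became 4 (upper quartile), 5 (no filter), 4 (limma-voom) and 4 (lane 1), and 3 to 8 with a library left out. In the pathway lists, 7 calls higher became 13 (library size alone), 12 (DESeq2), 14 (lane as a covariate), 4 (lane 1) and 12 (lane 2); the 1 call lower became 3 (DESeq2), 0 (lane 1) and 1 to 2 with a library left out. The cause of these shifts was not tested. The lane fits and those with a library left out also held fewer libraries.

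Changes of sign were confined to 5 members near 0: Ndufv1, Sdha, Cox7a2l, Cox7c and Atp5s. On the log2 scale, Ndufv1 was -0.0214 and Cox7a2l 0.139 in lane 1. Sdha was -0.0285 in lane 1 and -0.0124 to 0.0789 with a library left out. Cox7c was -0.0227 with upper quartile, -0.00782 in lane 2 and -0.0247 without both OIR replicate 1 and nonOIR replicate 8. With a library left out, Cox7c ran from -0.0721 to 0.0963. Atp5s was -0.00744 with limma-voom and -0.0275 to 0.177 with a library left out. Of all calls over all genes, 58.3% were higher with TMM, 73.7% with library size alone and 51.1% with upper quartile scaling. Low counts limit the values of Cox6a2, Cox6b2, Cox7a1 and Atp5l.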
